A study of Homo sapiens with 18 samples.

Results

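The change of the transcriptome between undifferentiated human embryonic stem cells and the hematopoietic progenitors derived from them was followed within 1 genotype, USB1 mutant cells. All 6 USB1 mutant libraries of these stages were used out of the 18 libraries of the series, 3 at D16 and 3 at D0, and all 35168 genes that the tables of both days list were joined by gene identifier. The cells were H1, an established human embryonic stem cell (hESC) line. The labels give the genotype as USB1 mut, and the study introduced a patient-associated loss-of-function deletion into USB1 by CRISPR/Cas9. The D16 libraries are labelled hematopoietic progenitors, 16 days after the start of hematopoietic differentiation, and the D0 libraries are labelled human embryonic stem cells at day 0. WT H1 cells at D16 and at D0, 3 libraries each and labelled Control in their titles, served only to ask where the change of the mutant differed. The study states that cells positive for CD34 and negative for CD43 were sorted at day 8 and cultured on in a mixture of hematopoietic cytokines, that the progenitors were CD34+/CD45+, and that hESCs were moved to Matrigel to deplete mouse feeder cells before differentiation. The number of mutant clones behind the libraries is not given in the sources used here.

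USB1 is an exonuclease that shortens the 3' end of U6 snRNA, a core component of the spliceosome, and its loss causes poikiloderma with neutropenia, a bone marrow failure syndrome. In hESCs a small network of transcription factors around POU5F1, NANOG and SOX2 holds the pluripotent state, under FGF and Nodal/activin signals. Blood forms through mesoderm and hemogenic endothelium, and the emerging progenitors are driven by factors such as RUNX1, TAL1, GATA2 and SPI1 into erythroid, megakaryocytic, granulocytic and monocytic fates.

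RNA was measured by rRNA-depleted, strand-specific sequencing, and the total per mutant library was 10133572 to 14056104 counts. Levels are given as CPM, counts per 1000000 counts of the library after TMM scaling, for replicates 1, 2 and 3 in this order. A change is the fitted log2 fold change of D16 over D0 with a standard error (SE). The SE of a change in counts is its absolute value divided by the square root of the edgeR quasi-likelihood F statistic. Where a day held only a few counts, this SE can be smaller than counting error alone. A gene was called where the edgeR quasi-likelihood test gave an adjusted p under 0.1 (Benjamini-Hochberg), which the study also used. Libraries of 1 day correlated with each other at r = 0.982 to 0.989 over log2 levels of all genes tested, and libraries of different days at r = 0.581 to 0.593. D0 replicate 1 stood apart from its day in 36 of 8098 genes of at least 20 CPM, where it lay over 2-fold above (3 genes) or below (33 genes) both other libraries, against 2 and 1 genes in D0 replicates 2 and 3. D16 replicate 3 stood apart in 29 of 8273 genes in the same way, against 3 and 6 genes in D16 replicates 1 and 2. No source says whether the libraries of a group came from separate cultures, so the p-values measure the spread between these libraries, and any handling that differed between the days cannot be told apart from the day.

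The labels of both days were checked against defining markers. The summed level of POU5F1, NANOG and SOX2 was 5.46, 7.12 and 9.42 CPM at D16, against 1368, 1434 and 1541 CPM at D0. The summed level of CD34, PTPRC (CD45) and SPN (CD43) was 1269, 1318 and 1267 CPM at D16, against 7.55, 8.50 and 6.51 CPM at D0. The D16 libraries also held markers of maturing blood cells. EPX, PRG2 and CLC, markers of eosinophils, summed to 8336, 10127 and 6392 CPM at D16, against 8.61, 10.3 and 23.7 CPM at D0. The D16 libraries are thus called by their day, and how many cells of each kind they held was not tested, since in bulk RNA fewer cells of a type and less RNA per cell cannot be told apart.

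**Figure D1:**
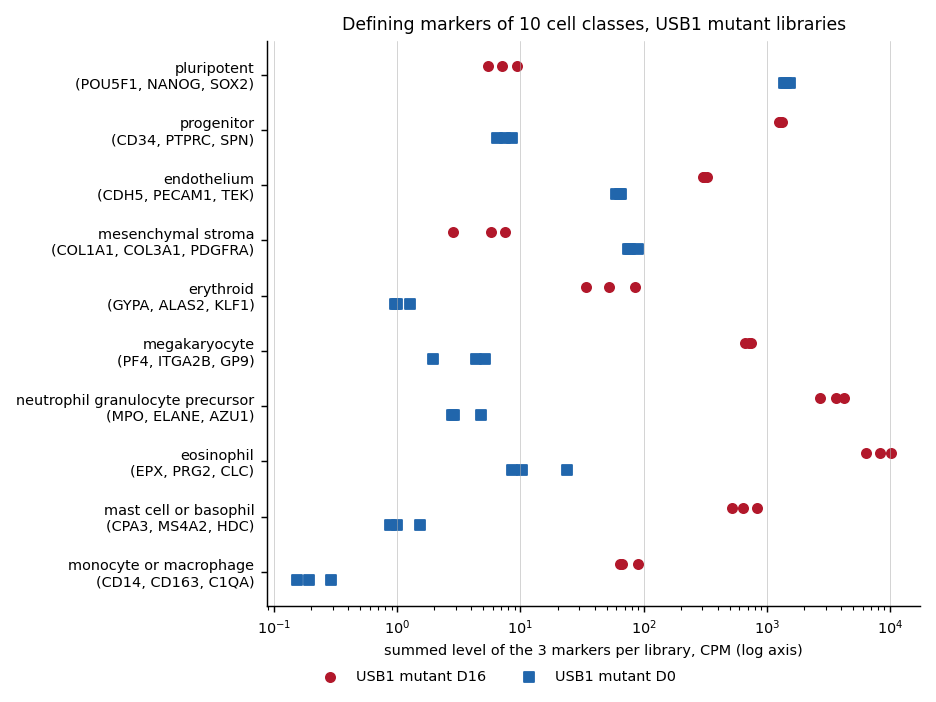
Summed level of 3 defining markers of each of 10 cell classes (rows) on a log axis in CPM, 1 circle per USB1 mutant D16 library and 1 square per USB1 mutant D0 library. Pluripotent markers sit at 5.46 to 9.42 CPM at D16 and at 1368 to 1541 CPM at D0, and eosinophil markers reach 10127 CPM at D16.

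Most of the transcriptome differed between the days. Of 15487 genes tested, 5989 were upregulated at D16 and 6124 were downregulated (FDR<0.1), and 3449 genes were upregulated and 3706 downregulated more than 2-fold. Together 78.2% of the genes tested were called, 38.7% upward and 39.5% downward, and 46.2% by more than 2-fold, 22.3% upward and 23.9% downward. The shares of 38.7% and 39.5% are the background for the counts of list members between the days given below. The median over all genes was -0.02 and the median absolute change 0.89 on the log2 scale, while 939 genes were higher and 1183 lower by more than 16-fold. The 3 libraries of D16 and the 3 of D0 did not overlap in 11996 genes, 77.5% of those tested. A set of 157 genes had no count in any D0 library and at least 10 counts in every D16 library, and 209 genes showed the reverse. Per chromosome the median change ran between -0.24 on chromosome 16 (721 genes) and 0.17 on chromosome 15 (522 genes).

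USB1 itself, on chromosome 16 at 57999546 to 58021618 (GRCh38, plus strand), had 58.2, 49.0 and 60.1 CPM at D16, against 88.3, 89.8 and 92.8 CPM at D0. The groups did not overlap, and USB1 mRNA fell (log2 -0.70 ± 0.12, SE, adjusted p = 7.1e-05). In the edgeR fit that also held the WT libraries, the change was -0.68 in the mutant and -0.48 in WT. The difference between the genotypes was not called (-0.21 ± 0.16, adjusted p = 0.5). The study reports more USB1 mRNA in mature blood cells, a later stage than D16, than in undifferentiated hESCs. The counts do not show whether a transcript carries the deletion.

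The genes with the largest upward change were blood genes without a count in the D0 libraries, so that only a lower bound of their fold change exists, set against 3 counts over the group. HBD, the delta globin chain, had 120, 145 and 103 CPM at D16 and no count at D0, at least 1386-fold higher. C1QC, a chain of complement C1q made by macrophages, had 85.2, 91.8 and 147 CPM at D16 and none at D0, at least 1218-fold higher. SELP, the P-selectin of platelet granules, had 79.8, 99.5 and 105 CPM at D16, at least 1069-fold higher, and GP9, a subunit of the platelet von Willebrand factor receptor, was at least 676-fold higher at 53.6, 59.8 and 66.2 CPM. The other members of this group were APOBR (a macrophage lipoprotein receptor, at least 1126-fold), ASGR2 (a subunit of the asialoglycoprotein receptor, at least 1022-fold), GAPT (a transmembrane adaptor of blood cells, at least 947-fold), RGS18 (a regulator of G protein signalling in platelets, at least 790-fold) and TAGAP (a GTPase-activating protein of leukocytes, at least 626-fold). NCF4, a cytosolic subunit of the phagocyte NADPH oxidase, had 212, 184 and 226 CPM at D16 and a single count in the D0 libraries, which gives a ratio of 7053 with an exact 95% interval of 1265 to 278599 for counting error.

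In the opposite direction stood genes of the stem cell state that lost their counts entirely. APELA, a peptide hormone secreted by hESCs, had 0 counts in the 3 D16 libraries, against 191, 192 and 171 CPM at D0, at least 2349-fold lower. CYP26A1, which degrades retinoic acid, had no count at D16, against 167, 161 and 159 CPM at D0, at least 2066-fold lower. PRDM14, a pluripotency regulator, was at least 1459-fold lower, with 108, 118 and 118 CPM at D0. The remaining genes without a D16 count were TRIML2 (a tripartite motif family protein, at least 1321-fold), AADACL3 (an arylacetamide deacetylase-like protein, at least 1264-fold), B3GALT5 (a galactosyltransferase that builds stage-specific embryonic glycolipids, at least 1233-fold), VAT1L (at least 1088-fold), IRX2 (an Iroquois homeobox factor, at least 1026-fold) and NMRK2 (a nicotinamide riboside kinase, at least 912-fold). ZSCAN10, a zinc finger factor of the pluripotency network, kept 1 count at D16, against 270, 343 and 357 CPM at D0, a ratio of 12433 with an exact 95% interval of 2231 to 491130.

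Of 20 core pluripotency genes tested, 19 were lower at D16, against 39.5% of all genes tested, none was higher, and the median was -6.96. POU5F1, the octamer-binding factor OCT4, had 4.12, 5.58 and 5.75 CPM at D16, against 811, 801 and 923 CPM at D0 (log2 -7.35 ± 0.17, adjusted p = 1.1e-13). NANOG had 1.26, 1.54 and 3.23 CPM at D16, against 338, 345 and 342 CPM at D0 (log2 -7.37 ± 0.24, adjusted p = 1.7e-11). SOX2 had 0.08, 0 and 0.43 CPM at D16, against 220, 288 and 277 CPM at D0 (log2 -10.40 ± 0.33, adjusted p = 4.5e-11). The loss was uneven within the list. SALL4, which is also a factor of early hematopoietic cells, kept 31.0, 29.1 and 36.3 CPM at D16, against 357, 476 and 471 CPM at D0. LIN28A, which blocks maturation of let-7 miRNAs, was at 69.2, 63.8 and 33.9 CPM at D16, against 2296, 2508 and 2433 CPM at D0 (log2 -5.44 ± 0.28). Its paralog LIN28B was lower by far less, with 151, 114 and 129 CPM at D16, against 186, 188 and 165 CPM at D0 (log2 -0.45 ± 0.12, adjusted p = 0.0043). TERT, the telomerase catalytic subunit, had 3.86, 6.15 and 5.97 CPM at D16, against 14.1, 18.5 and 16.8 CPM at D0 (log2 -1.63 ± 0.21). The member without a call was GDF3 (log2 -0.33 ± 0.33), which was near 2 CPM on both days.

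Genes of the Nodal pathway went down with the network (9 of 10 lower, 1 higher, median -4.58). LEFTY2, a secreted Nodal antagonist and Nodal target, had 1.09, 0.73 and 0.65 CPM at D16, against 527, 385 and 468 CPM at D0 (log2 -9.12 ± 0.22, adjusted p = 1.4e-13). The Nodal co-receptor TDGF1 had 0, 0.24 and 0.36 CPM at D16, against 694, 742 and 662 CPM at D0 (log2 -11.64 ± 0.27). The ligand NODAL itself was at 3 counts over the D16 libraries, a ratio of 1250 with an exact 95% interval of 428 to 6066. The signal transducer SMAD2 was the member with higher levels, at 356, 314 and 302 CPM at D16, against 239, 271 and 236 CPM at D0 (log2 0.38 ± 0.11, adjusted p = 0.0075).

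hESCs are epithelial cells, and every one of 20 tested genes of epithelial junctions and epithelial splicing was lower at D16 (median -6.19). CDH1, the E-cadherin of adherens junctions, had 1.51, 1.38 and 3.81 CPM at D16, against 339, 292 and 310 CPM at D0 (log2 -7.09 ± 0.28, adjusted p = 3.9e-09). ESRP1, which directs epithelial exon choice, had 1 count at D16, against 228, 199 and 200 CPM at D0. CLDN6, a claudin of stem cell tight junctions, was at 3.11, 3.32 and 2.08 CPM at D16, against 505, 447 and 501 CPM at D0 (log2 -7.42 ± 0.18). KRT8 and KRT18, the keratin pair of simple epithelia, had log2 changes of -4.26 ± 0.19 and -4.68 ± 0.15. The smallest changes were those of ST14, a membrane serine protease (log2 -0.56 ± 0.14), and CLDN10 (log2 -0.76 ± 0.27, adjusted p = 0.019, or 0.11 without D0 replicate 1). Markers of other germ layers that were detected at D0 were lower as well, 8 of 10 tested genes of endoderm and primitive streak (1 higher) and all 3 tested neuroectoderm genes of 10 listed. Of these, OTX2, a head and neural plate factor, had no count at D16, against 37.8, 46.3 and 44.5 CPM at D0, at least 546-fold lower. AFP, the fetal liver and yolk sac albumin relative, had 0.08, 0.24 and 0.22 CPM at D16, against 30.1, 25.7 and 24.3 CPM at D0. CXCR4, which hematopoietic progenitors use too, was the exception among them, at 30.4, 34.8 and 45.9 CPM at D16, against 7.45, 6.78 and 7.65 CPM at D0 (log2 2.34 ± 0.18). Stromal genes were lower in 11 of 15 tested and higher in 1. TAGLN, an actin-binding protein, had 2.94, 2.91 and 3.09 CPM at D16, against 1146, 957 and 1092 CPM at D0 (log2 -8.47 ± 0.16), and LUM, a matrix proteoglycan, was the 1 that was higher (log2 6.58 ± 0.49).

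**Figure D2:**
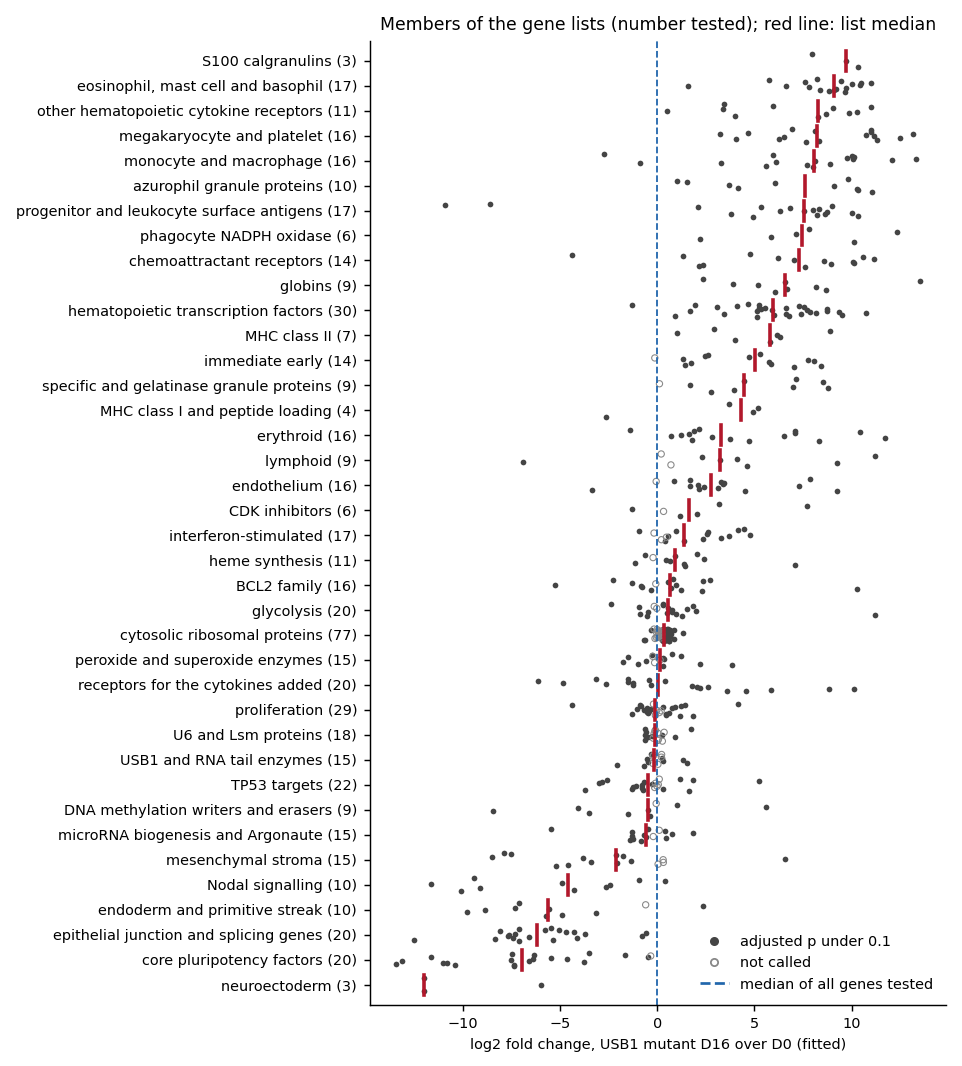
Fitted log2 fold change of USB1 mutant D16 over D0 for every tested member of the gene lists, filled where the adjusted p was under 0.1, with the list median as a red line and the median of all 15487 genes tested (-0.02) as a dashed line. Core pluripotency genes have a median of -6.96, hematopoietic transcription factors of 5.94, and the cytosolic ribosomal proteins of 0.36.

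Of 30 hematopoietic transcription factors, 29 were higher at D16, against 38.7% of all genes tested, and 1 was lower, with a median of 5.94. RUNX1, required for blood to emerge from hemogenic endothelium, had 339, 311 and 256 CPM at D16, against 12.1, 5.73 and 7.88 CPM at D0 (log2 5.14 ± 0.24, adjusted p = 8.8e-09). GATA2, a factor of stem and mast cells, had 333, 347 and 331 CPM at D16, against 0.87, 1.05 and 1.45 CPM at D0 (log2 8.18 ± 0.18, adjusted p = 9.4e-14). GATA1, the erythroid and megakaryocytic GATA factor, had 101, 124 and 127 CPM at D16 and 2 counts in the D0 libraries, a ratio of 1997 with an exact 95% interval of 553 to 16497. TAL1, the basic helix-loop-helix partner of the GATA factors, was at 203, 228 and 240 CPM at D16, against 0.39, 0.38 and 0.15 CPM at D0 (log2 9.51 ± 0.22). Among the remaining large changes were SPI1, the myeloid ETS factor PU.1 (log2 8.73 ± 0.32), IKZF1, the Ikaros factor (log2 8.75 ± 0.31), and GFI1, a repressor needed for neutrophils (log2 9.33 ± 0.29). CEBPA, which commits progenitors to the granulocytic line, had 217, 246 and 193 CPM at D16, against 6.87, 6.59 and 5.51 CPM at D0 (log2 5.12 ± 0.15, adjusted p = 7.1e-13). CEBPE, needed for the later granulocytic steps, had 14.6, 27.1 and 21.1 CPM at D16 and 3 counts in the D0 libraries, a ratio of 237 with an exact 95% interval of 80.9 to 1153. RUNX2 changed least, with 10.4, 8.33 and 4.24 CPM at D16, against 4.16, 4.11 and 3.67 CPM at D0. Its groups lay next to each other without overlap (log2 0.94 ± 0.30, adjusted p = 0.012, or 0.14 with transcript lengths as offsets). The factor that was lower was BCL11A, the repressor of fetal globin, named here after its values were seen, with 29.0, 30.8 and 40.0 CPM at D16, against 66.3, 95.3 and 86.9 CPM at D0 (log2 -1.31 ± 0.16). None of the 11 HOXA genes, which are used in definitive hematopoietic stem cells, reached the count filter, and none exceeded 1.43 CPM in any mutant library.

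Surface antigens of progenitors and leukocytes were higher at D16 in 15 of 17 tested and lower in 2. CD34 had 136, 156 and 164 CPM at D16, against 5.61, 5.73 and 3.83 CPM at D0 (log2 4.92 ± 0.17, adjusted p = 2.3e-12). PTPRC, the pan-leukocyte phosphatase CD45, had 602, 481 and 432 CPM at D16, against 0.19, 0.38 and 0.54 CPM at D0 (log2 10.33 ± 0.25, adjusted p = 1.4e-13). SPN, the sialophorin CD43, was at 532, 681 and 671 CPM at D16, against 1.74, 2.39 and 2.14 CPM at D0. The integrin ITGA4, used in homing, had 662, 473 and 427 CPM at D16, against 6.58, 3.44 and 3.60 CPM at D0. PROM1 and THY1, the genes of CD133 and CD90, went the other way. PROM1 had 0.08, 0 and 0 CPM at D16, against 75.9, 67.3 and 67.6 CPM at D0, and THY1 had 0.42, 0.49 and 1.37 CPM at D16, against 287, 306 and 329 CPM at D0 (log2 -8.60 ± 0.25).

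The culture between day 8 and D16 supplied cytokines and morphogens, and their receptors split evenly, with 10 of 20 higher and 10 lower at D16 (median 0.04, or -0.02 with scaling by library totals only). Receptors of the hematopoietic cytokines were the higher ones. KIT, the receptor of SCF, had 318, 269 and 242 CPM at D16, against 9.09, 12.8 and 12.4 CPM at D0 (log2 4.59 ± 0.16, adjusted p = 4.2e-12). CSF2RB, the beta chain shared by the IL-3, IL-5 and GM-CSF receptors, had 626, 609 and 585 CPM at D16, against 0.29, 0.29 and 0.92 CPM at D0 (log2 10.14 ± 0.24). EPOR, the erythropoietin receptor, had 23.6, 31.0 and 27.1 CPM at D16, against 6.77, 8.88 and 7.81 CPM at D0 (log2 1.80 ± 0.17). The lower ones were mostly receptors of FGF, BMP, VEGF, IGF and Hedgehog signals. FGFR1, an FGF receptor, had 9.83, 13.1 and 11.5 CPM at D16, against 289, 345 and 354 CPM at D0 (log2 -4.84 ± 0.15, adjusted p = 1.0e-12). SMO, the Hedgehog signal transducer, was lower with a log2 change of -3.12 ± 0.13 and FLT1, a VEGF receptor, with -2.65 ± 0.12. KDR, the main VEGF receptor of hemogenic endothelium, had 57.9, 64.2 and 69.6 CPM at D16, against 60.8, 91.7 and 88.2 CPM at D0, so that its groups overlapped although the test called it (log2 -0.33 ± 0.15, adjusted p = 0.062). The call of KDR was lost without D0 replicate 2 or 3 and without D16 replicate 1 or 2 (adjusted p = 0.17 to 0.29). All 11 tested receptors of other blood cytokines were higher, with a median of 8.29. IL5RA, the eosinophil receptor chain for IL-5, had 169, 164 and 107 CPM at D16, against 0, 0 and 0.38 CPM at D0 (log2 9.86 ± 0.46). IL1RL1, the IL-33 receptor of mast cells and eosinophils, had 511, 327 and 302 CPM at D16, against 0.10, 0.19 and 0.54 CPM at D0 (log2 10.28 ± 0.39).

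All 17 tested genes of eosinophils, mast cells and basophils were higher at D16 (median 9.12, or 8.84 with genes without D0 counts at their bound). PRG2, the major basic protein of eosinophil granules, had 4437, 5976 and 3762 CPM at D16, against 2.32, 3.34 and 11.0 CPM at D0 (log2 9.67 ± 0.72, adjusted p = 0.00017). EPX, the eosinophil peroxidase, had 1445, 1853 and 1415 CPM at D16, against 1.06, 1.24 and 5.66 CPM at D0 (log2 9.12 ± 0.62). CLC, the galectin of Charcot-Leyden crystals, had 2454, 2298 and 1215 CPM at D16, against 5.22, 5.73 and 7.04 CPM at D0 (log2 8.36 ± 0.37, adjusted p = 2.7e-07). In TPM, a unit per transcript length that allows genes to be compared, CLC was among the 5 highest genes at D16 with 7948, 7035 and 4198 TPM, against 19.2, 23.5 and 27.4 TPM at D0. These genes had small levels at D0 as well. The 5 listed genes with at least 1000 CPM at D16 and under 1% of that at D0 (CLC, EPX, FOS, MPO and PRG2) summed to 22.4, 19.9 and 35.7 CPM at D0, 0.171%, 0.152% and 0.272% of their D16 mean, and D0 replicate 3 was highest in 4 of the 5. Mast cell and basophil genes followed. CPA3, the mast cell carboxypeptidase, had 444, 338 and 243 CPM at D16, against 0.10, 0.19 and 0.38 CPM at D0 (log2 10.44 ± 0.38). HDC, which makes histamine, was at 387, 305 and 272 CPM at D16, against 0, 0.19 and 0.23 CPM at D0 (log2 10.99 ± 0.30). The chains of the high-affinity IgE receptor stayed at few counts. MS4A2, its beta chain, had 1.76, 2.83 and 2.23 CPM at D16, against 0.77, 1.15 and 0.38 CPM at D0 (log2 1.59 ± 0.42), and FCER1A, its alpha chain, had 1.09, 0.89 and 1.08 CPM at D16 and no count at D0, at least 11.5-fold higher.

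Because GATA1 and GATA2 were among the factors that went up, the 250 bases upstream of the start of each gene (RefSeq, GRCh38.p14) were searched on both strands for AGATAA, a core form of the GATA recognition sequence. It was present in 9.17% of 35116 promoters, in 5 of 15 matched promoters of the eosinophil, mast cell and basophil list, in 7 of 17 of the erythroid list, in 3 of 15 of the megakaryocyte and platelet list, in 0 of 18 of the monocyte and macrophage list, in 0 of 7 of the azurophil list, and in 3 of 13 of the core pluripotency list, whose genes were lower at D16. The megakaryocyte and platelet matches include GP6, which was not found under that name among the genes joined. The octamer ATTTGCAT, searched in the same promoters, was present in 1.63% of all promoters. It was in 0 of 13 core pluripotency promoters and in no promoter of the other lists searched. A match is a description of the letters and not a site of binding. The stretches show AGATAA in genes that had at most 0.38 CPM in any mutant D0 library. These are CPA3 (mast cell carboxypeptidase), HPGDS (prostaglandin D synthase of mast cells), ALAS2 (erythroid heme synthesis) and HEMGN (an erythroid nuclear protein). The match, or its reverse complement TTATCT, is in capitals, and each gene is read 5' to 3' on its own strand. They lie at chr3:148865096-148865155 (CPA3, distal, plus strand), chr3:148865224-148865283 (CPA3, proximal, plus strand), chr4:94342915-94342974 (HPGDS, minus strand), chrX:55031072-55031131 (ALAS2, minus strand) and chr9:97938254-97938313 (HEMGN, minus strand).
CPA3, distal: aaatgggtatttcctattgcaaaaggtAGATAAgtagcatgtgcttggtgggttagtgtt
CPA3, proximal: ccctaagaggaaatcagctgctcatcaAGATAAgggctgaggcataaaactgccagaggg
HPGDS: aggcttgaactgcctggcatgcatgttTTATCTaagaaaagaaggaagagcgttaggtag
ALAS2: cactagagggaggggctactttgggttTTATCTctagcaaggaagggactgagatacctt
HEMGN: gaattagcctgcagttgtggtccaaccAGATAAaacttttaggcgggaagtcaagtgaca

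Neutrophil granules are filled in stages. All 10 proteins of azurophil granules, which are made early in granulocyte maturation, were higher at D16 (median 7.58). MPO, the myeloperoxidase, had 2678, 3546 and 4119 CPM at D16, against 0.58, 0.57 and 3.37 CPM at D0 (log2 11.04 ± 0.62, adjusted p = 2.1e-05). PRTN3, proteinase 3, had 211, 339 and 268 CPM at D16, against 0.19, 0.19 and 0.23 CPM at D0 (log2 10.29 ± 0.29), and ELANE, neutrophil elastase, had 31.7, 72.1 and 51.6 CPM at D16 with 1 count at D0. AZU1, azurocidin, varied most, with 12.6, 20.6 and 68.6 CPM at D16, against 2.32, 2.20 and 1.30 CPM at D0 (log2 4.15 ± 0.94, adjusted p = 0.014, or 3.11 ± 0.30 without D16 replicate 3). Of 14 genes of the later specific and gelatinase granules, 9 passed the count filter and 8 of them were higher (median 4.48). LTF, lactoferrin, had 3.11, 5.99 and 5.03 CPM at D16, against 0.58, 0.76 and 0.69 CPM at D0 (log2 2.78 ± 0.37). CAMP, the cathelicidin, had 1.18, 1.29 and 0.65 CPM at D16 and no count at D0, at least 11.7-fold higher, and MMP8 stayed at 0, 0.08 and 0.14 CPM. CEACAM8, the CD66b antigen of neutrophils, had 1.34, 2.18 and 1.94 CPM at D16, against 1.74, 1.43 and 1.84 CPM at D0, and was not called (log2 0.12 ± 0.34, adjusted p = 0.75). HP, haptoglobin, had 98.9, 128 and 111 CPM at D16, against 0.58, 0.67 and 1.07 CPM at D0 (log2 7.13 ± 0.21).

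Genes of phagocyte function that do not belong to granules were also higher, all 6 of the NADPH oxidase (median 7.47) and all 3 calgranulins. CYBB, the catalytic subunit of the oxidase, had 402, 384 and 430 CPM at D16, against 0.10, 0.57 and 0.38 CPM at D0 (log2 10.12 ± 0.23, adjusted p = 1.2e-13). CYBA, its partner chain, had 296, 383 and 325 CPM at D16, against 70.3, 63.4 and 81.4 CPM at D0 (log2 2.22 ± 0.14). S100A9 had 295, 358 and 422 CPM at D16, against 0.48, 0.38 and 0.38 CPM at D0 (log2 9.72 ± 0.23). Among chemoattractant receptors 13 of 14 tested were higher and 1 lower (median 7.31, or 6.61 with genes without D0 counts at their bound). PTAFR, the receptor of platelet-activating factor, had 241, 265 and 242 CPM at D16, against 3.97, 2.48 and 3.52 CPM at D0 (log2 6.22 ± 0.17). CXCR2, the interleukin-8 receptor of neutrophils, had 6.97, 6.80 and 9.42 CPM at D16, against 2.52, 1.34 and 1.38 CPM at D0 (log2 2.16 ± 0.30). The lower member was ACKR3, a scavenger receptor for CXCL12, at 0.17, 0 and 0.14 CPM at D16, against 1.93, 2.01 and 3.14 CPM at D0 (log2 -4.38 ± 0.58).

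Of the monocyte and macrophage genes 14 of 16 tested were higher and 2 lower (median 8.08). CD14, the endotoxin co-receptor, had 19.3, 17.4 and 18.0 CPM at D16 and 2 counts at D0. MRC1, the macrophage mannose receptor, had 118, 91.0 and 96.5 CPM at D16, against 0.19, 0.76 and 0.15 CPM at D0 (log2 8.12 ± 0.28), and C1QA followed C1QC with 33.4, 40.6 and 59.2 CPM at D16 and no count at D0, at least 501-fold higher. The lower members were VCAN, a proteoglycan (log2 -0.89 ± 0.11), and SPP1, osteopontin (log2 -2.75 ± 0.20). For antigen presentation, B2M, the light chain of MHC class I, had 784, 690 and 590 CPM at D16, against 13.3, 20.1 and 22.4 CPM at D0 (log2 5.20 ± 0.20). CIITA, the master regulator of MHC class II, had 44.3, 65.4 and 87.6 CPM at D16, against 0.87, 1.24 and 1.38 CPM at D0 (log2 5.79 ± 0.32), and CD74, the invariant chain, had 144, 172 and 263 CPM at D16, against 13, 11.2 and 12.6 CPM at D0 (log2 3.98 ± 0.23). Levels of HLA genes are uncertain, since the MHC region has near-identical copies and HLA-C, HLA-DRA, HLA-DMA and PSMB9 were under 1 CPM in every mutant library.

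**Figure D3:**
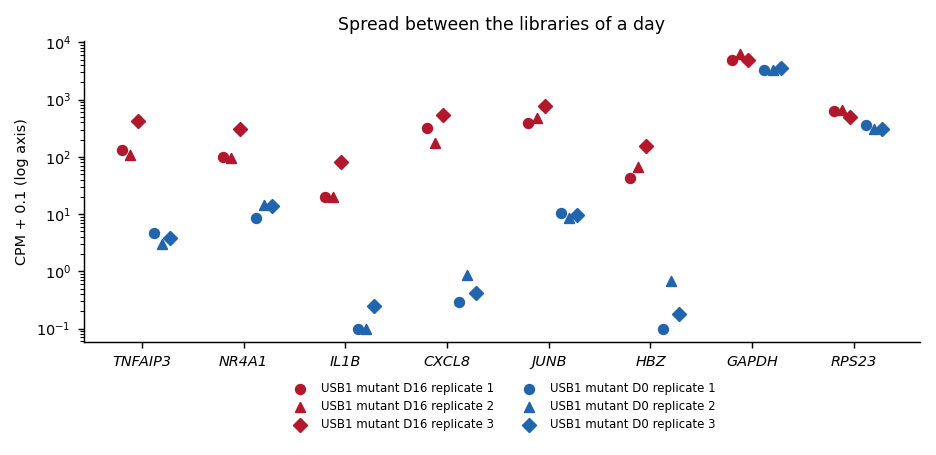
Level of 8 genes in each USB1 mutant library, in CPM plus 0.1 on a log axis, with D16 left of D0 and the marker shape giving the replicate number. D16 replicate 3 is highest for TNFAIP3 (426 CPM, against 130 and 110 CPM in D16 replicates 1 and 2), and D16 replicate 2 is highest for GAPDH and RPS23.

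The erythroid list was higher in 15 of 16 tested and lower in 1, with a median of 3.28. RHAG, the Rh-associated ammonia channel of red cells, had 138, 129 and 134 CPM at D16 and 1 count at D0. TFRC, the transferrin receptor of dividing cells, had 568, 657 and 688 CPM at D16, against 164, 176 and 168 CPM at D0 (log2 1.91 ± 0.11). The terminal genes AHSP (the chaperone of free alpha globin) and CA1 (the red cell carbonic anhydrase) did not pass the count filter, with 0.67, 1.05 and 1.15 CPM and 0.34, 0.73 and 0.43 CPM at D16. CA2, another carbonic anhydrase, was the lower member, with 7.56, 3.32 and 3.95 CPM at D16, against 13.8, 11.3 and 14.4 CPM at D0 (log2 -1.42 ± 0.27, adjusted p = 0.00038). All 9 tested globin genes were higher (median 6.58), with the limit that counts of near-identical pairs (HBA1 with HBA2, HBG1 with HBG2) can be shared between copies. HBG2, a fetal gamma chain, had 597, 623 and 919 CPM at D16, against 1.64, 4.20 and 1.61 CPM at D0 (log2 8.19 ± 0.38). HBE1, the embryonic epsilon chain, had 132, 140 and 184 CPM at D16, against 1.26, 3.63 and 1.99 CPM at D0 (log2 6.05 ± 0.28). The adult HBB had 2.86, 3.40 and 5.17 CPM at D16 with 1 count at D0. HBD, the delta chain, lay far above HBB, at 120, 145 and 103 CPM at D16. Whether some counts of HBD belong to other globin genes was not tested. Per length, HBG2 had 2217, 2175 and 3635 TPM at D16, HBE1 had 436, 436 and 648 TPM, and HBB had 11.8, 10.5 and 19.9 TPM, and these ranges did not overlap. Of 11 genes of heme synthesis, 8 were higher and 2 lower, against 38.7% and 39.5% of all genes tested. ALAS2, the erythroid form of the rate-limiting enzyme, had 11.3, 19.7 and 33.3 CPM at D16, against 0.19, 0.29 and 0 CPM at D0, and the housekeeping form ALAS1 had 137, 190 and 132 CPM at D16, against 53.0, 57.8 and 57.3 CPM at D0 (log2 1.45 ± 0.14).

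All 16 megakaryocyte and platelet genes tested were higher at D16, with a median of 8.22 (8.02 with genes without D0 counts at their bound). ITGA2B and ITGB3 form the platelet fibrinogen receptor. ITGA2B had 501, 534 and 597 CPM at D16, against 1.35, 3.25 and 3.44 CPM at D0 (log2 7.64 ± 0.23), and ITGB3 had 444, 464 and 537 CPM at D16, against 1.06, 0.95 and 2.30 CPM at D0 (log2 8.32 ± 0.23). PLEK, a platelet kinase substrate, had 455, 410 and 470 CPM at D16, against 0.10, 0.19 and 0.31 CPM at D0 (log2 11.00 ± 0.22). VWF, shared with endothelium, had 7.06, 9.79 and 9.42 CPM at D16, against 0.19, 1.15 and 1.38 CPM at D0 (log2 3.22 ± 0.40). The endothelial list was higher in 14 of 16 tested and lower in 1, with a smaller median of 2.77. CDH5, the VE-cadherin that defines endothelium, had 10.2, 9.39 and 8.12 CPM at D16, against 0.87, 0.38 and 0 CPM at D0 (log2 4.53 ± 0.52). PECAM1, which leukocytes and platelets also carry, had 287, 294 and 313 CPM at D16, against 0.29, 0.48 and 0.61 CPM at D0 (log2 9.27 ± 0.20). TEK, the angiopoietin receptor, was lower, at 5.46, 5.75 and 7.26 CPM at D16, against 58.9, 63.7 and 64.4 CPM at D0 (log2 -3.33 ± 0.15). In the lymphoid list 9 of 14 genes passed the filter, 6 of them were higher and 1, the T cell kinase gene LCK, was lower (log2 -6.88 ± 0.29). The B cell genes MS4A1 and PAX5 did not pass.

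Of 29 proliferation genes, 11 were higher and 13 lower (median -0.09), near the 38.7% and 39.5% of all genes tested. D-type cyclins, which drive entry into the cycle, moved apart. CCND3 had 335, 333 and 352 CPM at D16, against 17.9, 17.9 and 21.1 CPM at D0 (log2 4.16 ± 0.13, adjusted p = 8.6e-13), and CCND1 had 12.4, 14.7 and 17.8 CPM at D16, against 294, 338 and 311 CPM at D0 (log2 -4.39 ± 0.15, adjusted p = 2.5e-12). MKI67, which coats mitotic chromosomes, had 786, 593 and 691 CPM at D16, against 172, 196 and 205 CPM at D0 (log2 1.85 ± 0.13), and CDC20, an activator of the anaphase-promoting complex, had 90.7, 77.2 and 116 CPM at D16, against 216, 225 and 250 CPM at D0 (log2 -1.28 ± 0.14). Among CDK inhibitors 4 of 6 were higher and 1 lower, against 38.7% and 39.5% of all genes tested. CDKN2D had 21.4, 23.6 and 21.8 CPM at D16, against 2.52, 2.39 and 2.45 CPM at D0 (log2 3.18 ± 0.18), and CDKN1C had 55.2, 87.4 and 71.5 CPM at D16, against 13.5, 18.9 and 19.1 CPM at D0 (log2 2.05 ± 0.19). Target genes of p53 were lower in 12 of 22 and higher in 5, against 39.5% and 38.7% of all genes tested. BTG2, an antiproliferative factor that is also an immediate early gene, rose most, to 285, 244 and 616 CPM at D16, against 10.2, 9.36 and 10.7 CPM at D0 (log2 5.24 ± 0.48). GDF15, a stress-induced cytokine, had 2.02, 2.10 and 2.30 CPM at D16, against 25.7, 25.8 and 32.4 CPM at D0 (log2 -3.70 ± 0.19). In the BCL2 family 9 of 16 members were higher and 6 lower, against 38.7% and 39.5% of all genes tested. The survival gene BCL2 had 46.3, 42.2 and 55.7 CPM at D16, against 8.61, 11.1 and 9.26 CPM at D0 (log2 2.32 ± 0.16), while BOK, a pro-apoptotic member, had 2.35, 2.75 and 2.01 CPM at D16, against 87.9, 85.5 and 96.1 CPM at D0 (log2 -5.24 ± 0.16).

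**Figure D4:**
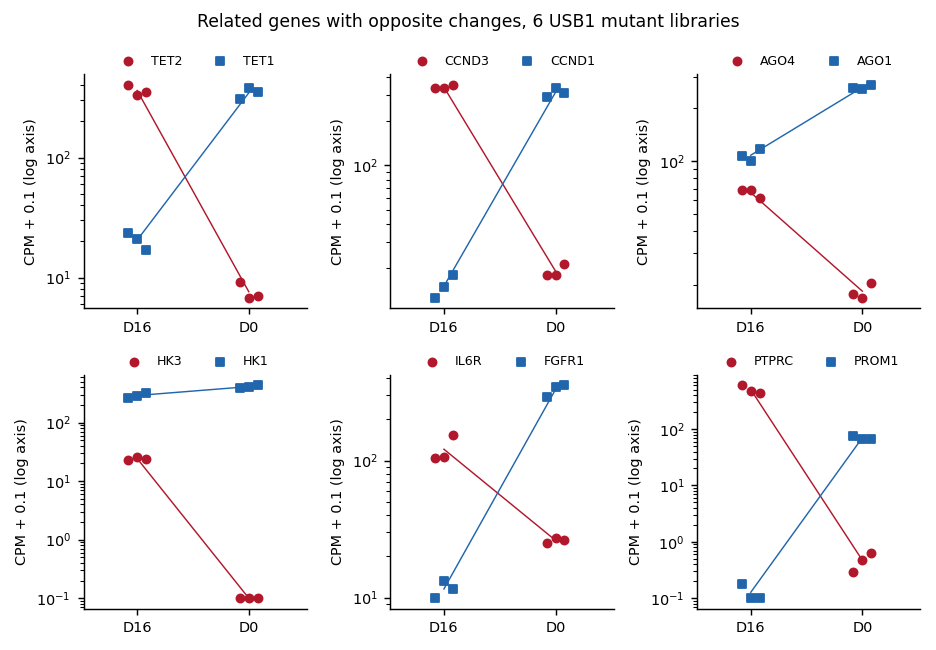
Level of 6 pairs of related or contrasted genes in each USB1 mutant library, in CPM plus 0.1 on a log axis, D16 left of D0, with a line between the means of the 3 libraries of each day. TET2 and CCND3 are high at D16 where TET1 and CCND1 are low.

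Enzymes of DNA methylation were higher in 2 of 9 (TET2 and TET3) and lower in 6, against 38.7% and 39.5% of all genes tested. TET2, a 5-methylcytosine oxidase often mutated in myeloid disease, had 403, 330 and 355 CPM at D16, against 9.0, 6.68 and 6.89 CPM at D0 (log2 5.59 ± 0.16, adjusted p = 4.5e-13). TET1, the oxidase of stem cells, had 23.3, 21.0 and 17.0 CPM at D16, against 310, 380 and 349 CPM at D0 (log2 -4.09 ± 0.15, adjusted p = 4.8e-12). DNMT3B, a de novo methyltransferase, had 125, 109 and 152 CPM at D16, against 1178, 1658 and 1614 CPM at D0 (log2 -3.53 ± 0.17), and the maintenance enzyme DNMT1 was lower by less (log2 -0.35 ± 0.13, adjusted p = 0.027). The call of DNMT1 was lost with transcript lengths as offsets (log2 -0.14, adjusted p = 0.375), without D16 replicate 2 (log2 -0.21, adjusted p = 0.17), and narrowly without D16 replicate 1 or D0 replicate 2 (adjusted p = 0.10 and 0.11).

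Since USB1 acts on RNA 3' ends, the enzymes of the same steps were followed. Among 15 tested genes, USB1 and the enzymes that add or remove RNA tails, 4 were higher and 5 lower at D16 (median -0.18). Of all genes tested, 38.7% were higher and 39.5% lower. With 1 library left out, 3 to 6 of the 15 were higher and 4 to 7 lower. TENT4A and TENT4B, the poly(A) polymerases PAPD7 and PAPD5, were not called (log2 0.04 ± 0.13, adjusted p = 0.77, and log2 -0.22 ± 0.13, adjusted p = 0.14). TENT4B was called lower with library totals only and without D16 replicate 1 (log2 -0.27, adjusted p = 0.067 and 0.084). PARN, a poly(A)-specific ribonuclease, had 8.40, 8.01 and 7.69 CPM at D16, against 13.1, 42.1 and 44.7 CPM at D0 (log2 -2.05 ± 0.49, adjusted p = 0.011). D0 replicate 1 lay closer to the D16 libraries than to the other D0 libraries in PARN, and without it the change of PARN was -2.44 ± 0.15. TENT2, a cytoplasmic poly(A) polymerase, had 96.5, 85.8 and 86.8 CPM at D16, against 31.6, 31.0 and 30.3 CPM at D0 (log2 1.53 ± 0.11), and TUT7, a uridylyltransferase, had 110, 94.1 and 88.1 CPM at D16, against 43.5, 35.1 and 37.0 CPM at D0 (log2 1.34 ± 0.13). Of 18 genes that build or bind U6 snRNP, 3 were higher (LSM8, LARP7 and PRPF3) and 6 lower, against 38.7% and 39.5% of all genes tested. PRPF3 was not called without D0 replicate 2 or 3 (adjusted p = 0.19 and 0.17). LARP7, a protein of the 7SK RNP that also guides U6 modification, changed most, with 74.6, 58.6 and 54.8 CPM at D16, against 16.9, 20.8 and 19.0 CPM at D0 (log2 1.73 ± 0.15). LSM2 had 0, 15.5 and 15.4 CPM at D16, against 21.3, 0 and 4.74 CPM at D0, so that no difference between the days was detectable. The miRNA pathway was lower in 9 of 15 genes and higher in 4 (median -0.56), against 39.5% and 38.7% of all genes tested. DGCR8, the partner of DROSHA in cleaving primary miRNAs, had 36.0, 43.1 and 44.2 CPM at D16, against 108, 106 and 114 CPM at D0 (log2 -1.41 ± 0.12), and DROSHA had 88.7, 63.3 and 95.4 CPM at D16, against 148, 143 and 148 CPM at D0 (log2 -0.83 ± 0.14). The nuclear exporter XPO5 was lower too (log2 -1.26 ± 0.13), whereas DICER1, the cytoplasmic nuclease, had 302, 237 and 260 CPM at D16, against 208, 185 and 180 CPM at D0 (log2 0.48 ± 0.12). The Argonautes divided. AGO1 and AGO2 were lower (log2 -1.28 ± 0.11 and -0.69 ± 0.11), and AGO3 and AGO4 were higher (log2 0.78 ± 0.11 and 1.86 ± 0.13).

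Of 77 ribosomal protein genes tested, 57 were higher and 3 lower, with a median of 0.36 and 1 called change over 2-fold. That change was in RPS9, with 49.7, 16.4 and 20.5 CPM at D16, against 11.7, 14.1 and 8.57 CPM at D0 (log2 1.34 ± 0.50, adjusted p = 0.057). RPS9 was no longer called without any 1 of the D0 libraries (adjusted p = 0.11 to 0.19), and its change was 0.72 ± 0.22 without D16 replicate 1. RPS23 had 634, 666 and 499 CPM at D16, against 360, 305 and 312 CPM at D0 (log2 0.88 ± 0.13). The lower ones were RPL9, RPL8 and RPS26 (log2 -0.70 ± 0.12, -0.64 ± 0.11 and -0.29 ± 0.11), of which RPL8 and RPS26 were named after their values were seen. RPS26 was not called without D0 replicate 3 or without D16 replicate 1 (adjusted p = 0.16 and 0.14). D16 replicate 2 was the highest of the 3 D16 libraries in 63 of the 77 ribosomal genes and in 16 of 20 glycolysis genes, and without it 50 ribosomal genes were higher and 3 lower (median 0.32). Without D0 replicate 2 the number of higher ribosomal genes was 43. In glycolysis, 13 of 20 were higher and 5 lower, with and without D16 replicate 2. LDHA, which makes lactate, had 1835, 1966 and 1561 CPM at D16, against 509, 495 and 489 CPM at D0 (log2 1.84 ± 0.12), while SLC2A1, the glucose transporter GLUT1, had 138, 174 and 134 CPM at D16, against 706, 747 and 844 CPM at D0 (log2 -2.37 ± 0.13). HK3, the hexokinase of leukocytes, had 23.3, 25.5 and 24.0 CPM at D16 and no count at D0, at least 274-fold higher. Among enzymes against peroxide and superoxide, 7 of 15 were higher and 5 lower, near the 38.7% and 39.5% of all genes tested. CAT, catalase, had 168, 159 and 156 CPM at D16, against 10.7, 11.5 and 11.0 CPM at D0 (log2 3.86 ± 0.12), and GPX1 had 926, 1128 and 944 CPM at D16, against 222, 212 and 225 CPM at D0 (log2 2.18 ± 0.12). PRDX1 was lower (log2 -1.77 ± 0.12). Interferon-stimulated genes were higher in 12 of 17 and lower in 2, IFITM3, a membrane factor against viral entry (log2 -0.91 ± 0.18), and RIGI, a sensor of viral RNA (log2 -1.63 ± 0.17).

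Immediate early genes were higher at D16 in 13 of 14 tested, with a median of 5.01, and varied between the D16 libraries. FOS had 1142, 1297 and 1666 CPM at D16, against 13.2, 8.98 and 8.57 CPM at D0 (log2 7.06 ± 0.22). JUNB had 388, 481 and 766 CPM at D16, against 10.5, 8.40 and 9.49 CPM at D0 (log2 5.84 ± 0.30). D16 replicate 3 was the highest library in 12 of the 14. Genes of the same response and of inflammation, named after their values were seen, showed the same library on top. TNFAIP3, an NF-kappaB feedback inhibitor, had 130, 110 and 426 CPM at D16, IL1B, an inflammatory cytokine, had 19.7, 19.6 and 81.3 CPM, and NR4A1, a nuclear receptor induced by stimulation, had 98.8, 96.9 and 308 CPM. ATF3, a stress factor, was the member without a call, at 12.3, 13.4 and 53.0 CPM at D16, against 29.2, 28.3 and 28.6 CPM at D0 (log2 -0.12 ± 0.67, adjusted p = 0.89). EGR1 at D0 was 11.2 CPM in replicate 1, against 0.76 and 0.69 CPM in replicates 2 and 3. The change of EGR1 was 5.73 ± 0.99 on the log2 scale (adjusted p = 0.0058), and 8.19 ± 0.21 without D0 replicate 1. Without D16 replicate 3 the 13 genes were still higher and the median was 4.81, with log2 changes of 6.90 ± 0.18 for FOS and 5.52 ± 0.15 for JUNB. ATF3 was then called lower (log2 -1.16 ± 0.15, adjusted p = 1.3e-05), so that its result turned on this library. Over genes of at least 20 CPM, the median SD of log2 levels was 0.145 among the D16 libraries and 0.108 among the D0 libraries.

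The deposited average effective length of each gene, an estimate of the mean length of the transcripts in use, was compared over 8634 genes with at least 100 counts in each library. With limma on log2 lengths, 206 genes were longer and 277 shorter at D16 (5.59% of genes called, 2.39% and 3.21% by direction). TFPI, an inhibitor of the coagulation cascade, had an average effective length of 2722, 3464 and 2991 bases at D16, against 781, 712 and 687 bases at D0 (log2 2.07 ± 0.10, adjusted p = 0.0077). MBD2, which reads methylated DNA, had 2127, 2681 and 3027 bases at D16, against 1005, 1002 and 924 bases at D0 (log2 1.40 ± 0.14), and was no longer called without D0 replicate 2 (adjusted p = 0.10). In the other direction, ADGRV1, an adhesion G protein-coupled receptor, had 1423, 1727 and 1576 bases at D16, against 4855, 4930 and 5056 bases at D0 (log2 -1.66 ± 0.08), and MYLK, myosin light chain kinase, had 1833, 1776 and 1899 bases at D16, against 5344, 4164 and 5440 bases at D0 (log2 -1.43 ± 0.12). PER1, a circadian repressor, was shorter (log2 -1.43 ± 0.09) although its count was not called (log2 0.73, adjusted p = 0.14). Leaving out 1 library left between 73 (without D0 replicate 2) and 221 (without D0 replicate 1) length calls. With the replicate number added to the model no length call was left, although the numbers were not taken to pair the libraries.

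The change within the mutant was set against the change within WT H1 cells in a fit of the 12 libraries of both genotypes. Of 16211 genes tested, 995 had a difference in change (mutant minus WT) above 0 and 1084 below 0, 6.14% and 6.69% of those tested. In WT alone, 79.7% of the genes were called between the days. With genes of chromosome Y and XIST left aside, 2076 genes were called, of which 1446 changed in the same direction in both genotypes, and in 1028 of these the mutant change was the smaller. Directions were opposite in 111 genes, in 50 upward in the mutant and in 61 downward. The counts rest on the scaling, since with library totals alone 2522 genes lay above 0 and 719 below, after a shift of the median of all genes of 0.23. Leaving out 1 library moved the count of calls between 1271 (without WT D0 replicate 2) and 3421 (without WT D16 replicate 3).

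Genes of the eosinophil, mast cell and basophil list had differences below 0 in 5 of 18 tested, against 6.69% of all genes, and above 0 in none. PRG2 had 4351, 5853 and 3677 CPM in mutant D16 and 2.25, 3.24 and 10.7 CPM in mutant D0 libraries, against 35334, 28136 and 18939 CPM in WT D16 and 1.88, 0.81 and 2.21 CPM in WT D0 libraries, all in the scale of this fit. The change of PRG2 was smaller in the mutant (difference -4.40 ± 0.78, adjusted p = 0.0083). CLC differed in the same way (difference -3.80 ± 0.49, adjusted p = 0.00077), and so did EPX (difference -4.26 ± 0.80, adjusted p = 0.010). CLC had 2406, 2251 and 1187 CPM in mutant D16 libraries, against 8457, 7058 and 5303 CPM in WT D16 libraries. At D0 the order was reversed, with 5.07, 5.56 and 6.85 CPM in mutant libraries, against 1.57, 2.03 and 0.63 CPM in WT libraries. Low D0 levels, higher in the mutant for PRG2 too, thus enter these differences, which are not the gap at D16 alone. Megakaryocyte and platelet genes had differences above 0 in 5 of 16, against 6.14% of all genes, and below 0 in none. ITGB3 had 436, 454 and 525 CPM in mutant D16 and 1.03, 0.93 and 2.23 CPM in mutant D0 libraries, against 200, 261 and 261 CPM in WT D16 and 3.06, 2.23 and 3.69 CPM in WT D0 libraries (difference 1.98 ± 0.35, adjusted p = 0.0027). KIT had 312, 264 and 236 CPM in mutant D16 and 8.82, 12.4 and 12.1 CPM in mutant D0 libraries, against 52.3, 123 and 88.9 CPM in WT D16 and 29.2, 22.6 and 22.1 CPM in WT D0 libraries (difference 2.76 ± 0.37, adjusted p = 0.00090). In ITGB3 and KIT the mutant was on average the higher genotype at D16 and the lower at D0, so both days enter their differences. CA2 was lower at D16 in the mutant (log2 -1.41) and its WT value was 0.84, with 7.41, 3.25 and 3.86 CPM in mutant D16 libraries, against 32.7, 25.2 and 28.7 CPM in WT D16 libraries (difference -2.25 ± 0.35, adjusted p = 0.0011). GPX3, a secreted glutathione peroxidase, showed the same pattern (difference -2.44 ± 0.22, adjusted p = 2.2e-05). Among factors named above, CEBPA had a called difference (-0.84 ± 0.22, adjusted p = 0.025), and POU5F1, SOX2, RUNX1 and GATA2 had none. CEBPE had 14.3, 26.6 and 20.6 CPM in mutant D16 libraries, against 119, 106 and 96.3 CPM in WT D16 libraries, without overlap. Its D0 libraries held at most 0.22 CPM, and its difference in change had a wide error and was not called (-2.46 ± 1.43, adjusted p = 0.33). RUNX2 was not called either (-1.55 ± 0.57, adjusted p = 0.12), but was called with DESeq2, without mutant D16 replicate 1 and without WT D16 replicate 3 (-1.85, adjusted p = 0.023 in the last of these).

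**Figure D5:**
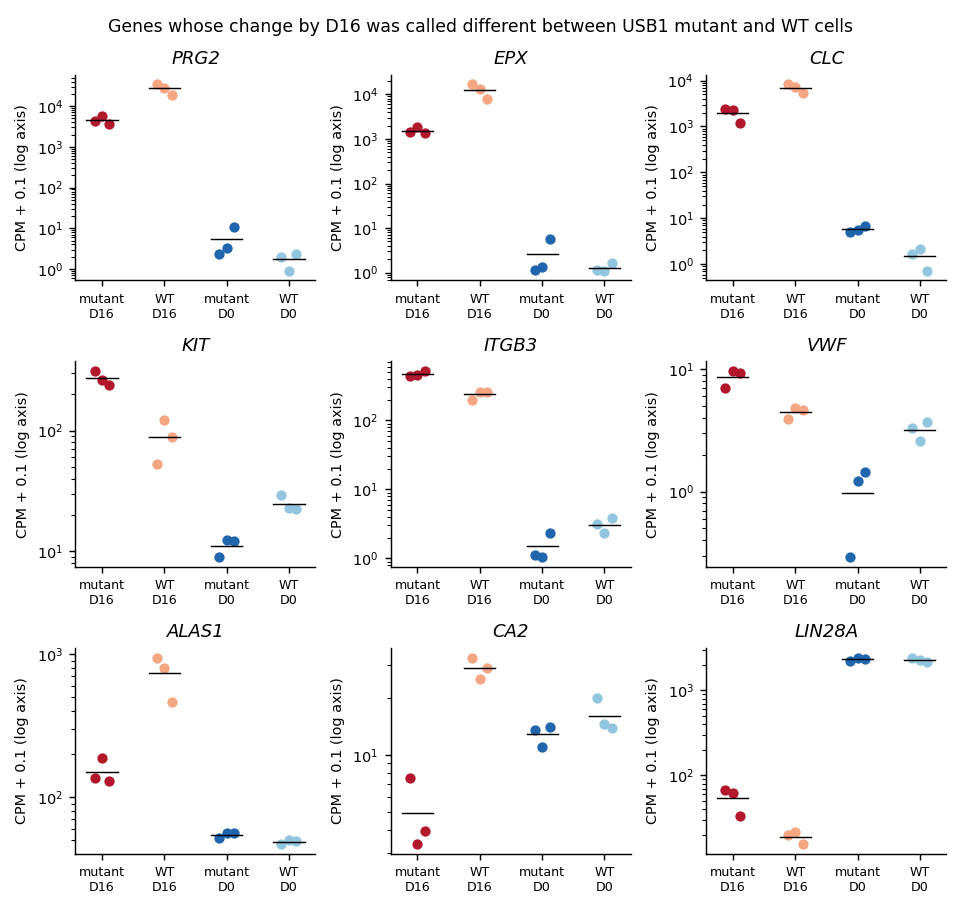
Level of 9 genes with a called difference in change, in CPM plus 0.1 on a log axis and in the scale of the 12-library fit, for USB1 mutant D16, WT D16, USB1 mutant D0 and WT D0 (3 points each, with the mean as a line). PRG2, EPX and CLC are lower in mutant than in WT D16 libraries, and KIT and ITGB3 are higher.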

How the data were processed

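RNA of 6 USB1 mutant H1 libraries (D16 and D0, 3 each) and, for the difference between genotypes, 6 WT libraries was analysed. Day 30 was not used here. According to the study's methods and the submitters' processing notes, the authors trimmed paired reads with Trimmomatic 0.36, quantified them with Salmon 0.13.1 against the Ensembl GRCh38 cDNA transcriptome and summed transcripts to genes. Whether the strand was used in counting is not given in the sources used here. The deposited tables hold estimated counts, TPM and average effective transcript lengths in bases. Estimated counts were rounded to whole numbers.

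The tables of both days were joined by gene identifier, and 35051 of 35168 identifiers matched GENCODE names; the others held 0.229% of mutant counts. Totals were 8901493 to 17536743 counts over the 12 libraries, and the biological coefficient of variation was 0.137 in the fit of the mutant libraries. Genes passing filterByExpr were tested with edgeR 4.0.16 (TMM scaling, robust quasi-likelihood fit) in R 4.3.3, at a Benjamini-Hochberg adjusted p under 0.1. Lengths were tested on the log2 scale with limma 3.58.1 for genes with at least 100 counts in each of the 6 libraries. DESeq2 1.42.0, limma-voom, other scalings, filters and thresholds, lengths as offsets, a replicate block and leaving out each library were the alternatives. The steps were tested on simulated data in which few genes changed. Most genes differed between the days here, so the simulation could not test the scaling under such wide change.

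A fold against a day without counts is a bound set at 3 counts over the 3 libraries, and a ratio with 1 to 3 counts has an exact 95% interval; both cover counting error only. Promoter sequences are RefSeq's, and gene positions are of GRCh38. The members and gene lists were chosen with earlier results of these data known. Selected for naming were 11 genes of the study's pathway, the 10 highest and 10 lowest called changes over 2-fold without overlap and with at least 20 CPM, up to 5 called members of each list by size (lists of at most 20 by member), the 8 highest and 8 lowest called differences between genotypes with at least 5 CPM, the 5 genes with the highest TPM of each day, and the 5 largest called length changes each way. Not every gene selected by TPM or by length is given in the text. Genes of chromosome Y and XIST were left out, and some items are not reported here.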

Additional observations from a re-analysis of the deposited data

Results flagged for a closer look

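In these genes the change between the days differed between the USB1 mutant and WT by the edgeR test of the difference itself (mutant minus WT, log2, with SE). In the list of eosinophil, mast cell and basophil genes the differences were -4.40 ± 0.78 for PRG2 (adjusted p = 0.0083), -4.26 ± 0.80 for EPX (adjusted p = 0.010) and -3.80 ± 0.49 for CLC (adjusted p = 0.00077), and PRG3, another granule protein, had -4.88 ± 1.09 (adjusted p = 0.021, or 0.143 without mutant D0 replicate 3). PRG3 had 282, 520 and 316 CPM in mutant D16 and at most 1.34 CPM in mutant D0 libraries, against 5297, 4524 and 2677 CPM in WT D16 and at most 0.47 CPM in WT D0 libraries. Low D0 levels, higher in the mutant for PRG2 and CLC, enter the differences of these genes as well. CEBPA, a factor of the same lineages, had a difference of -0.84 ± 0.22 (adjusted p = 0.025).

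Of genes made by megakaryocytes, ITGB3 had a difference of 1.98 ± 0.35 (adjusted p = 0.0027) and VWF, which endothelium also makes, 2.73 ± 0.50 (adjusted p = 0.0037). In the endothelial list 3 of 16 genes had called differences above 0 and 3 below. GP1BA, a chain of the platelet receptor for von Willebrand factor, had 4.25 ± 1.36 (adjusted p = 0.091), and its call was lost in 12 settings, DESeq2 and 8 fits without 1 library among them (adjusted p up to 0.347). GP1BA had 29.9, 24.2 and 22.9 CPM in mutant D16 libraries, against 10.7, 13.2 and 12.1 CPM in WT D16 libraries. KIT had a difference of 2.76 ± 0.37 (adjusted p = 0.00090). LIN28A was lower at D16 in both genotypes and kept more in the mutant, with 67.9, 62.5 and 33.1 CPM in mutant D16 libraries, against 19.9, 21.3 and 15.3 CPM in WT D16 libraries (difference 1.48 ± 0.29, adjusted p = 0.0061).

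Among enzyme genes, the rise at D16 was smaller in the mutant for ALAS1 (difference -2.46 ± 0.30, adjusted p = 0.00033), and the direction was opposite to that in WT for CA2 (difference -2.25 ± 0.35, adjusted p = 0.0011) and GPX3 (difference -2.44 ± 0.22, adjusted p = 2.2e-05). PARN was lower at D16 in the mutant, with a difference of -2.03 ± 0.49 (adjusted p = 0.030). ALAS1 had 135, 186 and 129 CPM in mutant D16 libraries, against 943, 800 and 464 CPM in WT D16 libraries. PARN had 8.24, 7.85 and 7.52 CPM in mutant D16 and 12.7, 40.9 and 43.5 CPM in mutant D0 libraries, against 33.7, 41.5 and 43.6 CPM in WT D16 and 38.2, 46.2 and 35.9 CPM in WT D0 libraries.

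The 8 highest differences held, beside GP1BA, the following genes. CDK7, the kinase of TFIIH, had a difference of 6.77 ± 1.58 (adjusted p = 0.035) with 21.0, 0.79 and 16.3 CPM in mutant D16 and 0.75, 1.02 and 1.71 CPM in mutant D0 libraries, against 0.51, 2.21 and 2.04 CPM in WT D16 and 4.55, 22.1 and 26.3 CPM in WT D0 libraries, so that single libraries of a group lay far apart. COL2A1, a cartilage collagen, had 3.32 ± 0.52 (adjusted p = 0.0018) with 26.2, 42.2 and 20.9 CPM in mutant D16 libraries, against 2.41, 4.10 and 6.18 CPM in WT D16 libraries. H3C6, a replication-dependent histone whose copies can share counts, had 3.04 ± 0.42 (adjusted p = 0.0018), with 271, 241 and 146 CPM in mutant D16 libraries, against 7.98, 18.2 and 22.8 CPM in WT D16 libraries. ATF6B had 3.00 ± 0.56 (adjusted p = 0.0068), RASL12 3.94 ± 1.37 (adjusted p = 0.097), APOA1 3.80 ± 1.24 (adjusted p = 0.078) and NTM 3.12 ± 0.95 (adjusted p = 0.055).

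The 8 lowest held, beside PRG3, GPSM3 (-7.82 ± 1.92, adjusted p = 0.045), HS3ST5 (-6.77 ± 0.95, adjusted p = 0.00085), the leukocyte antigens CD37 (-5.60 ± 1.78, adjusted p = 0.078) and CD244 (-5.32 ± 1.77, adjusted p = 0.084), SLC6A15 (-5.17 ± 0.63, adjusted p = 0.00023), DPEP2 (-5.14 ± 1.72, adjusted p = 0.086) and MLC1 (-4.72 ± 1.45, adjusted p = 0.062). CD37 had 44.0, 43.6 and 30.0 CPM in mutant D16 libraries, against 109, 105 and 63.0 CPM in WT D16 libraries, and CD244 had 20.2, 16.3 and 13.9 CPM, against 84.9, 73.9 and 54.6 CPM. HS3ST5 and SLC6A15 had at most 0.07 CPM in any mutant D16 library, against 0.65 to 1.65 CPM in WT D16 libraries. In 4 of the 8 highest and 7 of the 8 lowest a group had 3 counts or fewer (GP1BA, RASL12, APOA1, NTM, GPSM3, HS3ST5, CD37, CD244, SLC6A15, DPEP2 and MLC1), and such a fitted difference depends on the prior count and is no measure of size. GPSM3 and ATF6B lie in the MHC region of chromosome 6, whose copies make counts uncertain.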

How the results depend on the processing

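The count of 12113 genes called between the days of the mutant kept within 1.5 times of itself under every alternative run, from 10200 with at least 5 CPM in 3 libraries to 13725 without a count filter, and from 11587 to 12248 with 1 library left out. Of 172 named genes, 166 were called and 7 lost the call under some alternative (CLDN10, DNMT1, KDR, PRPF3, RPS26, RPS9 and RUNX2), and no called value changed sign.

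The 2079 differences between the genotypes were more sensitive. They numbered 1327 with transcript lengths as offsets, 1294 at an adjusted p under 0.05, 3241 with library totals only, and 1271 (without WT D0 replicate 2) to 3421 (without WT D16 replicate 3) with 1 library left out, with 1305 without mutant D0 replicate 3. With library totals only, 77.8% of these lay above 0, against 47.9% with TMM. The WT change, 12921 genes, gave 12423 to 13116 with 1 library left out, and 39.9% of the calls were higher with library totals only, against 49.1% with TMM. Of 38 genes named for the difference, 28 were called and 12 lost the call under some alternative (APOA1, CD244, CD37, CDK7, DPEP2, GP1BA, GPSM3, HS3ST5, MLC1, NTM, PRG3 and RASL12). The 483 length calls became 254 with at least 500 counts in each library, 708 with at least 20, 138 at an adjusted p under 0.05 and 73 (without mutant D0 replicate 2) to 221 with 1 library left out. The cause of these shifts was not tested.

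The deviations of same-numbered D16 and D0 libraries correlated at 0.074, 0.003 and 0.016 over 15487 genes, so the numbers were not taken to pair the libraries. With the replicate block 12260 genes were called for the mutant change, 13061 for the WT change, 2496 for the difference, 522 list members in place of 518, and 0 for length, where 1426 genes had an unadjusted p under 0.05, against 1624 without the block. The block took the call from RASL12, from all 10 genes selected for length and from no other named gene. It gave RUNX2 a called difference between the genotypes (-1.54, adjusted p = 0.0928). Of the genes selected for length, TFPI, MBD2, ADGRV1, MYLK and PER1 are given above. Among the others, ATP8A2, SENP7 and PRUNE2 also lost the call in fits without 1 library.

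Genes of 3 counts or fewer in a day have no measured size of change, and 157 genes without D0 counts have a bound only. No source gives the culture behind a library.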
